A study of Drosophila melanogaster with 2 samples.

Results

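The cytoplasmic ribosomal protein genes of Drosophila melanogaster were examined for peaks of chromatin immunoprecipitation and sequencing (ChIP-seq), in which anti-GFP was used to recover a Drgx-eGFP fusion protein. The genes were taken from the annotation as protein-coding genes with symbols that start with RpL, RpS or RpLP, and sta was added because its annotated synonym is RpSA. This gave 93 of 13945 protein-coding genes on 6 chromosomes, 54 of the large subunit and 39 of the small subunit. The 73 mitochondrial ribosomal protein genes (mRp) were not members and served for comparison. A gene was counted when a peak summit lay within 1000 bp of any of its annotated transcription start sites (TSSs).

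The material was whole embryos, 1 day of age, of the strain Drgx-GFP, whose flies carry a transgene for Drgx joined to eGFP. Sonicated chromatin had fragment sizes from 200 to 800 bp. There was 1 group with 2 biological replicates, and a control experiment named in the labels was not used here. Summits are therefore described as they stand in the lists, whether they come from the tagged protein was not tested, and no background library was set beside them. In whole embryos, binding in many cells and strong binding in few cells cannot be told apart. The authors deposited a thresholded list for each replicate and a pair made from both replicates together, called here the pooled list, which carries the main values, and the conservative list. The pooled list held 8443 peaks, the conservative list 7909, the replicate 1 list 6349 and the replicate 2 list 5475, and no peak in them scored below 830, the score of an irreproducible discovery rate of 0.01. Library depth is unknown, because the files give peaks without reads. The signal value of a peak is the authors' own, on a scale that these sources leave unstated, and is compared only within a list.

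Drgx is a homeodomain transcription factor, of a class that binds AT-rich sites with the core TAAT. Cytoplasmic ribosomal protein genes encode the structural proteins of the ribosome and are among the most highly transcribed genes of growing cells. In Drosophila most of their promoters carry the TCT initiator, a pyrimidine-rich start site that takes the place of the usual initiator, and many carry the DNA replication-related element (DRE), bound by Dref, or motif 1, bound by M1BP. Loss of 1 copy of many of these genes gives the Minute phenotype of slow growth and thin bristles.

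The promoters that the results turn on are shown from 70 bases before the TSS to the first 20 bases of the transcript, on the gene's strand, from the RefSeq Release 6 assembly (dm6). The capitals mark CTTT, the core of the TCT initiator, where its C lies at or within 5 bp of the annotated start. RpL14 (3L:8600936-8601025, plus strand), RpS25 (3R:11216268-11216357, minus strand) and RpL27 (3R:25685032-25685121, minus strand) had a pooled summit within 60 bp of the start and this core. RpS27 (3R:25247495-25247584, minus strand) and RpL17 (X:6744219-6744308, minus strand) had such a summit and no such core at the start shown, and another annotated start of RpS27 has it. RpS3A (4:67188-67277, minus strand) had the core and no peak of any score.
RpL14: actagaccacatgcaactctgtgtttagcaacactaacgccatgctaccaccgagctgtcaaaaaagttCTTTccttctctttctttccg
RpS25: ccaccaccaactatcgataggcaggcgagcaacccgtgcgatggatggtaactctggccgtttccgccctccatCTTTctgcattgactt
RpL27: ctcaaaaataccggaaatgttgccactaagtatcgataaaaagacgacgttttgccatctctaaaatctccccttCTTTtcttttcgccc
RpS27: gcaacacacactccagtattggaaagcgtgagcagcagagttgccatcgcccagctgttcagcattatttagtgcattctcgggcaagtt
RpL17: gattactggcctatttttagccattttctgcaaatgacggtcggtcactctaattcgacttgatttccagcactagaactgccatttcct
RpS3A: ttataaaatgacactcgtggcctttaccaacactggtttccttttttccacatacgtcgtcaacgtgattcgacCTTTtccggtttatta

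Short words bound by known factors were searched in the promoters and around the summits. The DRE word TATCGATA, the motif 1 word GGTCACAC, the E box CACGTG bound by Myc, and TAATTA, a homeodomain core with TAAT on both strands, were each searched on both strands. The next lines show where such words fell within 50 bp of a pooled summit, with the word in capitals on the gene's strand. The RpS10b site (X:19597940-19597975, plus strand) and the RpL27 site (3R:25685070-25685105, minus strand) hold the DRE word, 73 and 37 bp before the start. The RpL24 site (2L:13395156-13395189, minus strand) holds the E box 42 bp before the start, at which its summit lay. The RpS13 site (2L:8364395-8364428, minus strand) holds TAATTA 184 bp after the start, and it was the only member with that word so close to its summit.
RpS10b: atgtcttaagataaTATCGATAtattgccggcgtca
RpL27: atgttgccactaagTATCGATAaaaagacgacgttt
RpL24: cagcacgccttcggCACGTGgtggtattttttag
RpS13: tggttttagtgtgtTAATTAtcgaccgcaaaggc

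Ribosomal protein genes had a summit at their start sites more often than protein-coding genes as a whole. In the pooled list 46 of the 93 members (49.5%) had one, against 25.2% of all 13945 protein-coding genes. The conservative list also gave 46 members (49.5%), against 24.1% of all genes, and 42 members were called in both lists. How many of all genes were in both was not counted. Replicate 1 gave 32 members (34.4%), against 20.4%, and replicate 2 gave 35 (37.6%), against 18.1%. The share was above that of all genes in each of these lists. Genes are not replicates and the design has 1 group, so these shares are a description and no test was made.

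**Figure D1:**
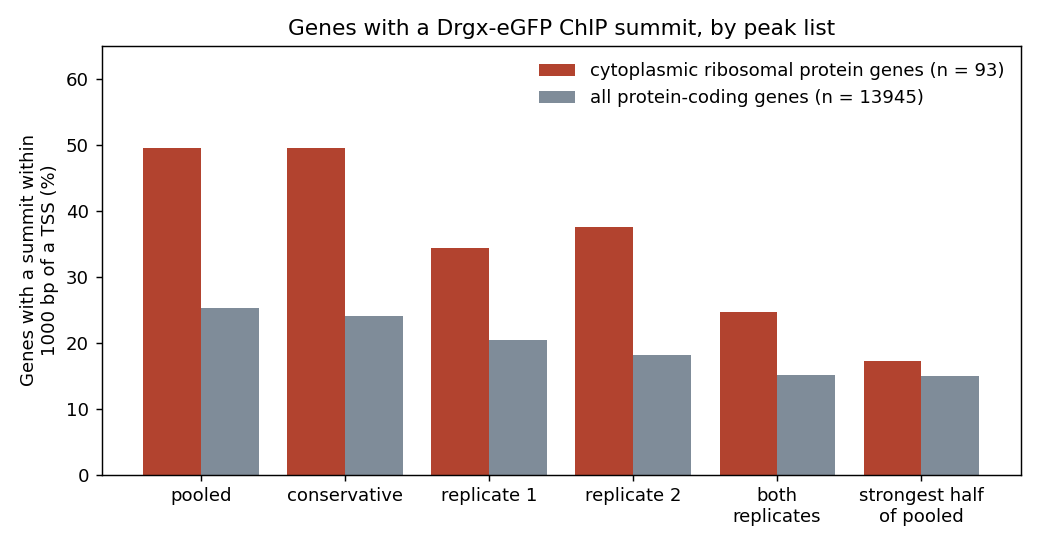
Share of genes (%) with a summit within 1000 bp of a TSS in each list, for the 93 cytoplasmic ribosomal protein genes (red) and all 13945 protein-coding genes (grey). The bars stand at 49.5% and 25.2% in the pooled list and come close to each other, at 17.2% and 15.0%, in the 50% of the pooled list with the highest signal.

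The excess lay in peaks of modest signal. Among the 50% of pooled peaks with the highest signal, 16 members (17.2%) had a summit, against 15.0% of all genes, which is near the background. Peaks with the maximum score of 1000 were found at 41 members (44.1%), against 21.7%. The score is a measure of rank agreement, and a peak can reach its maximum at a signal in the lower part of the list.

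Both subunits had like shares in the pooled list. The large subunit had 26 of 54 genes (48.1%) with a summit and the small subunit 20 of 39 (51.3%). The replicates differed in which subunit had more: the large subunit had 17 genes (31.5%) in replicate 2 and 19 (35.2%) in replicate 1, and the small subunit 18 (46.2%) in replicate 2 and 13 (33.3%) in replicate 1. The mitochondrial ribosomal protein genes, which encode the ribosome of the organelle, had 21 of 73 (28.8%) in the pooled list, closer to the 25.2% of all genes than to the cytoplasmic set.

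The window around the start site changed the counts less than the choice of strong peaks did. Within 500 bp there were 40 members (43.0%), against 20.9% of all genes, and within 2000 bp 53 (57.0%), against 31.9%. Within 100 bp there were 29 members (31.2%), against 7.47% of all genes and 3 of the 73 mitochondrial genes (4.11%). Counting the most upstream TSS alone gave 46 members (49.5%), against 22.9%, and counting any overlap of the whole peak with the window gave 46 (49.5%), against 26.5%. When each summit counted only for the coding gene whose TSS was closest, 35 members (37.6%) had one, against 19.8%, and 6 of the 73 mitochondrial genes did (8.22%).

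Summits at ribosomal protein genes lay close to the start site. The strongest pooled summit of the 46 members had a median distance of 87 bp from the nearest TSS of the gene, against 199 bp in the 3516 protein-coding genes with a summit and 158 bp in the 21 mitochondrial genes. It lay within 50 bp in 19 members (41.3%), against 9.41% of all genes with a summit, and within 100 bp in 26 (56.5%), against 22.7%. The signed median was 42 bp upstream in the members and 129 bp upstream in all genes, and 29 members (63.0%) had the summit upstream of the start, against 73.0%. The number of annotated start sites per gene, which affects such distances, was alike, with a mean of 1.78 in members and 1.84 in all genes with a summit.

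**Figure D2:**
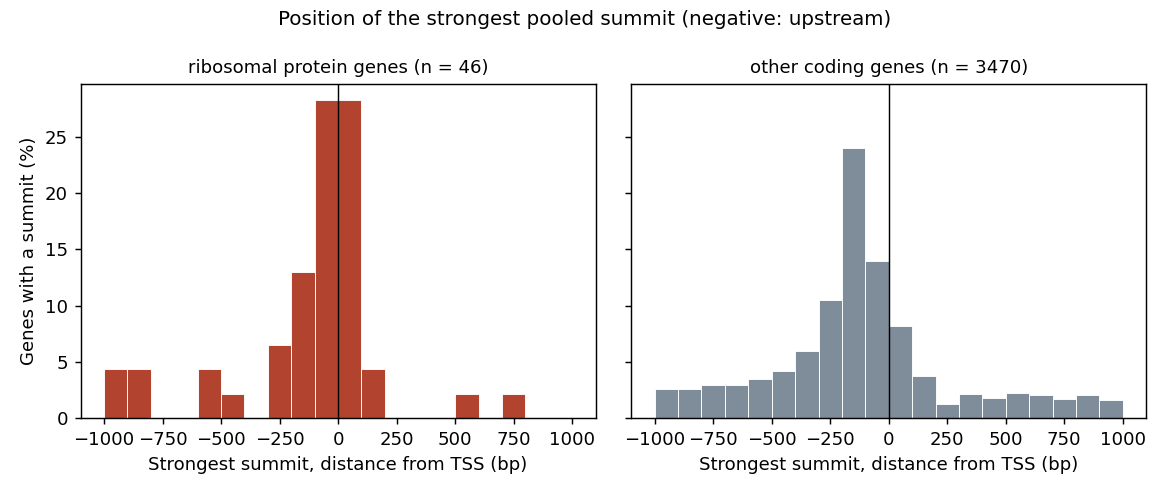
Distance (bp) of the strongest pooled summit from the nearest TSS, in bins of 100 bp, as a share (%) of the 46 ribosomal protein genes with a summit (left) and of the 3470 other protein-coding genes with one (right). The members have 13 genes in each of the bins on either side of the start, and the other genes are most frequent 100 to 200 bp upstream (833 genes).

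The nearness to the start held in each list. The median distance was 52.5 bp in the conservative list, against 194 bp in all genes, 95 bp in replicate 1, against 204 bp, and 42 bp in replicate 2, against 192 bp. In 33 members the start of the gene itself was the nearest coding TSS to the summit. In these the median was 45 bp and 25 (75.8%) lay within 100 bp, against a median of 168 bp and 28.5% in the 2658 protein-coding genes of the same kind. In the other 13 members (28.3%) the TSS of a neighbour was nearer, which is near the 24.4% of all genes with a summit. It was nearer in 15 of the 21 mitochondrial genes with a summit (71.4%). In these 13 members the median distance to the member's own start was 549 bp. By annotation, 45 of the 46 summits (97.8%) were at promoters, within 500 bp of a TSS of any gene, coding or not, against 84.4% in all genes with a summit. At the mitochondrial genes with a summit it was 21 of 21 (100%).

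The signal of these summits was lower than that at other genes. The strongest pooled summit of a member had a median signal of 111, at the 44.4th percentile of the list, against 143 and the 60.3rd percentile in all genes with a summit. In the 21 mitochondrial genes with a summit the medians were 148 and the 62.1st percentile. In bins of 25% of the pooled list, from weakest to strongest, the members numbered 8, 22, 7 and 9, against 603, 825, 888 and 1200 of all genes. The median percentile was 41.4 in the conservative list (59.9 in all genes), 38.3 in replicate 1 (58.3) and 36.2 in replicate 2 (58.5). Signal at members ranged between 60.2 and 800.

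The strongest signals were found where another gene starts close by. RpS19b, a copy of the small subunit gene RpS19 known for expression in the germline, had a pooled signal of 800, rank 156 of 8443, with 477 in replicate 1 and 344 in replicate 2. Its peak (3R:23934292-23934578) lay 902 bp upstream of the start, in an intron of CG5854 whose TSS was 520 bp from the summit. RpL34b, a large subunit gene, had a signal of 357 (213 in replicate 1 and 148 in replicate 2) at 3R:9401325-9401499, 164 bp upstream of its start and 105 bp from that of CG8132. RpL32, the large subunit gene also known as rp49 and used as a reference transcript in Drosophila, had 314 (175 and 150) at 3R:30046250-30046452, 137 bp upstream and 172 bp from the start of CG7943. In these 3 genes the peak was in both replicate lists.

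RpS20, of the small subunit, had a signal of 279 (181 in replicate 1 and 86.6 in replicate 2), 156 bp upstream of its start. RpL7, of the large subunit, had 275 (148 and 120) at 2L:10200954-10201124, 39 bp upstream of the nearest of its starts and 87 bp from that of Ripalpha. RpS28b had 271 (164 and 93.1) at a summit 804 bp upstream, 69 bp from the start of l(1)G0320. A second summit of RpS28b lay 20 bp upstream of its own start, with a pooled signal of 171, so the value of 271 belongs to the position nearer the neighbour. In replicate 1 the summit near its own start was also the weaker (83.2), and in replicate 2 it was the stronger (102, at 22 bp upstream).

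RpL14, whose promoter is shown above, had 201 (89.2 in replicate 1 and 107 in replicate 2) at 3L:8600759-8601142, 55 bp upstream of its start and 72 bp from that of Nelf-E, which encodes a subunit of the negative elongation factor. RpS27 had 198 (87.6 and 97.6), 34 bp upstream and 110 bp from the start of Nup37, a nuclear pore gene. RpL41 had 215 (118 and 90.3), 93 bp upstream and 89 bp from that of NaCP60E, a sodium channel gene. RpL23 had 174 at 264 bp upstream. Replicate 1 had thresholded summits for it 257 bp upstream (81.2) and 512 bp upstream (89.4), the stronger of which lay outside the pooled peak, and the replicate 2 peak (67.0, at 262 bp upstream) did not pass the threshold.

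At each of the 10 members of highest signal, from RpS19b to RpL23, another protein-coding TSS lay within 1000 bp of the summit. Among the other 36 members it did in 23. Over all 46 members the count was 33 (71.7%), against 49.5% of all genes with a summit and 21 of 21 mitochondrial genes with one (100%). Among the 9 members in the top 25% of pooled signal it was 9 of 9 and among the other 37 it was 24 (64.9%), against 51.3% and 48.5% of all genes. The assignment to one or the other gene of such a pair cannot be made from a summit, and its part in the signal was not tested.

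The other 13 members, with no other coding start within 1000 bp of the summit, had pooled signals between 78.6 (RpL4) and 174 (RpL23A). RpL17 had 154 (101 in replicate 1 and 49.0 in replicate 2) at X:6744078-6744461, 32 bp upstream of its start, with the next coding TSS 3274 bp away. RpL22, whose fly protein has a histone H1-like extension, had 150 (88.6 and 59.2), 45 bp upstream. RpL30 had 143 (84.1 and 59.1), 11 bp downstream, and RpL23A had 174 (109 and 69.4), 89 bp upstream. RpS7 had 127 (80.7 and 40.2), 53 bp downstream, and RpS4 had 118 (64.1 and 69.1), 11 bp downstream. In each of these 6 genes the peak was in both replicate lists.

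RpS25 had 142 (87.7 in replicate 1 and 59.2 in replicate 2), 11 bp upstream of its start and 237 bp from that of CG4820. RpS6, the substrate of S6 kinase, had 119 (65.6 and 53.7), 105 bp downstream. RpL11, which with RpL5 carries the 5S ribosomal RNA, had 117, 101 bp upstream, and was in the replicate 2 list (59.3) but not in that of replicate 1 (50.2). RpL3 had 115, 28 bp downstream, and was in the replicate 1 list (68.1) but not in that of replicate 2 (39.8). These 4 complete the 20 members of highest pooled signal.

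**Figure D3:**
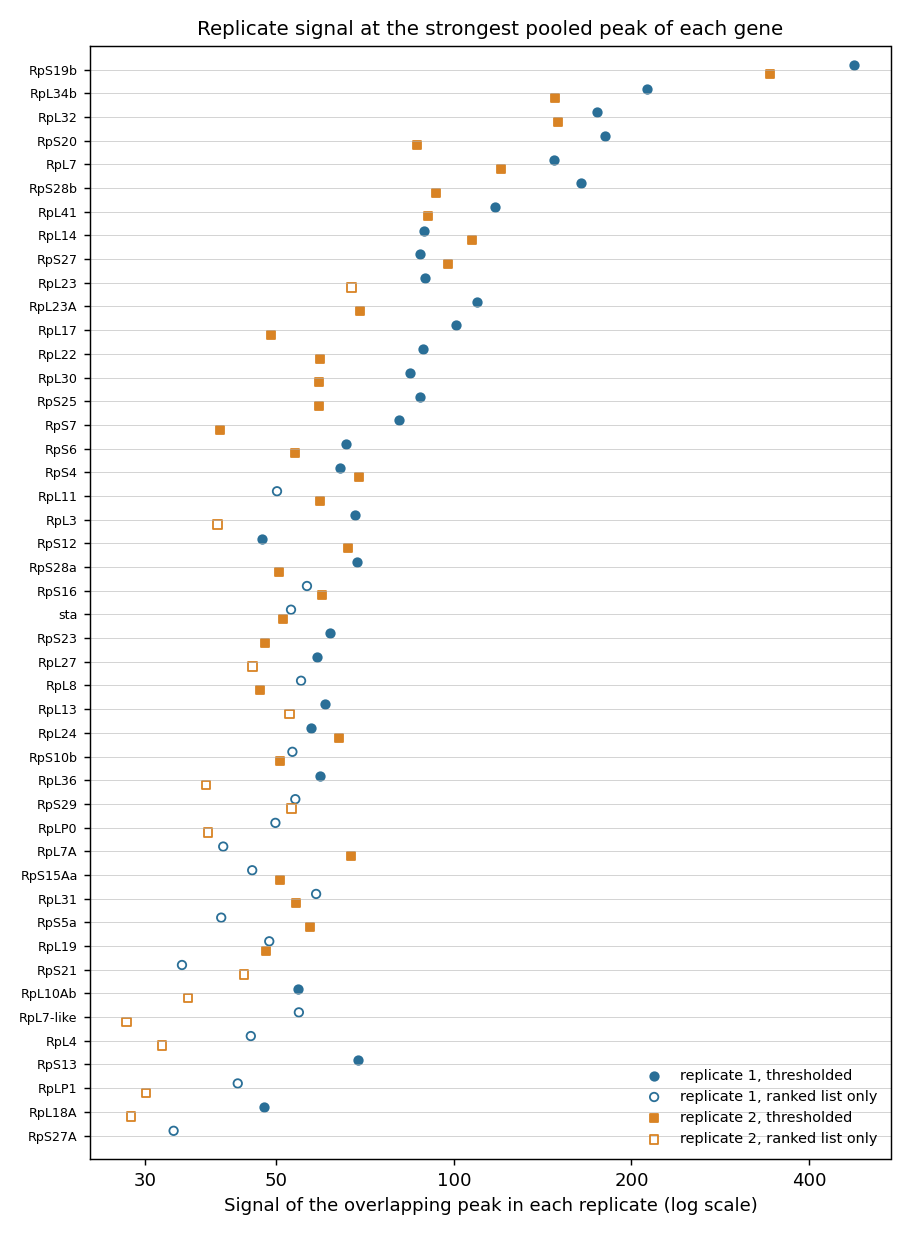
Signal (log scale, the authors' unit) of the peak in replicate 1 (circles) and replicate 2 (squares) that overlaps the strongest pooled peak of each of the 46 genes, ordered by pooled signal. Filled symbols passed the threshold in that replicate's list and open symbols are in its ranked list only. The filled pairs are mostly at the top, from RpS19b (477 and 344) to RpS4 (64.1 and 69.1), and RpS13 and RpS27A have no overlapping replicate 2 peak.

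The replicate value beside a pooled peak is that of the strongest overlapping peak, and its summit lay outside the pooled peak for RpL23, RpS12 and RpL19 in replicate 1 and for RpL10Ab in replicate 2. Among genes with a pooled summit, a smaller share of the ribosomal protein genes than of all genes had a summit in both replicate lists. A gene was counted when each list had a summit within 1000 bp of one of its starts, which need not be the pooled one. At RpL8 the pooled peak, with its summit 935 bp upstream, was not thresholded in replicate 1, whose thresholded summit lay 174 bp upstream. Both replicate lists had a summit at 23 members (24.7%), against 15.1% of all genes, and all 4 thresholded lists had one at 22 (23.7%), against 15.0%. Of the 46 members in the pooled list, 22 (47.8%) were in both replicate lists, against 59.6% of all genes in the pooled list, and 7 (15.2%) were in neither, against 14.1%. The members' pooled signal was also lower, as given above, and its part in this was not tested. Where both replicates had a summit the positions were close, with a median of 20 bp between the closest of them and a largest gap of 223 bp. Requiring summits within 100 bp of each other left 20 members (21.5%), against 14.3%, and requiring the peaks to overlap by 50% left 19 (20.4%), against 13.1%.

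The members seen in 1 replicate list were 9 in replicate 1 and 12 in replicate 2. Of all 13945 protein-coding genes, 2851 were in the replicate 1 list, 2525 in the replicate 2 list and 2108 in both. The members numbered 32, 35 and 23 in the same order. RpL23 (174), RpL3 (115) and RpL27 (103) were in that of replicate 1, and RpL11 (117), RpS16 (112) and sta (110) in that of replicate 2, each given with its pooled signal. The gene sta, named after the stubarista antenna phenotype, encodes the small subunit protein RpSA, and its summit lay 7 bp downstream of a start, with 51.4 in replicate 2 and 53.0, below the score threshold, in replicate 1. The 7 members in the pooled list and in neither replicate list were RpL4, RpL7-like, RpLP0, RpLP1, RpS21, RpS27A and RpS29. The 4 members in the pooled and not in the conservative list were RpL10Ab, RpL7-like, RpS13 and RpS27A, and the 4 in the conservative list alone of that pair were RpL27A, RpL28, RpL37-1 and RpL37A. The like counts over all genes were not made. Counting any of the 4 lists gave 54 members (58.1%), against 28.2% of all genes.

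The stalk proteins, which recruit translation factors to the large subunit, differed in whether they had a summit. RpLP0 had a pooled signal of 94.3 at 484 bp upstream, and its other summit lay 90 bp downstream. RpLP1 had 73.5 at 569 bp upstream, 269 bp from the start of CG13690. RpLP2 had no thresholded summit, and its best ranked score was 85 in the pooled ranked list, 753 in the conservative one, 341 in replicate 1 and 85 in replicate 2. None of the 3 had a thresholded replicate summit.

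Of the 2 genes that encode ubiquitin fused to a ribosomal protein, 1 had a pooled summit. RpS27A had a pooled signal of 60.2, the lowest of the 46, at 173 bp upstream, with 33.5 in replicate 1 and no overlapping peak in replicate 2. RpL40 had no thresholded summit, and its best ranked score was 454 in the pooled ranked list and 597 in the conservative one.

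Several of the strongest pooled summits of members lay at the start of a known neighbour. A neighbour's start was the nearer in 28.3% of members with a summit, near the 24.4% of all genes, as given above. The summit of RpL13 (102) was 117 bp upstream of its start and 33 bp from the start of Dref, the gene of the DRE-binding factor, which begins in the same interval (2L:9967004-9967387). That of RpL8 (103) was 935 bp upstream and 19 bp from the start of msn, a kinase gene. RpL8 also had summits nearer its own start, 9 bp downstream in the conservative list (95.7), 174 bp upstream in replicate 1 (44.7) and 34 bp upstream in replicate 2 (61.4). The pooled summit of RpL7-like (78.6) was 282 bp upstream and 2 bp from a start of JhI-21. RpS12 (115) and RpS28a (113) had theirs 558 bp upstream and 549 bp downstream, at 106 bp from Adk2 and 122 bp from Mgat2. RpS12 had further, weaker summits nearer its start, 286 bp upstream in the conservative list (76.0) and 76 bp upstream in replicate 2 (41.0), and in replicate 1 its single summit lay 299 bp upstream (47.2).

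Of the 20 genes in pairs of near copies, 9 had a pooled summit (45.0%), close to the 49.5% of all members and above the 25.2% of all protein-coding genes. Of the 10 pairs, 7 had a pooled summit at 1 gene, 1 had it at both and 2 at neither. The copies with a summit were RpL10Ab, RpL22, RpL34b, RpS5a, RpS10b, RpS15Aa and RpS19b, and their partners without one were RpL10Aa, RpL22-like, RpL34a, RpS5b, RpS10a, RpS15Ab and RpS19a. Among these partners RpL22-like, RpS5b and RpS10a are known for expression in the germline, and so is RpS19b among the copies with a summit. RpS28a and RpS28b both had one, each nearer to the start of a neighbour than to their own at the strongest pooled summit.

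RpL37-1 and RpL37-2, and RpS14a and RpS14b, had none in the pooled list. The start sites of RpS14a and RpS14b are 1156 bp apart, and reads from near-identical copies may be shared or lost in mapping, so these values are uncertain. RpL37-1 was in the conservative list (84.2, at 47 bp upstream) and in that of replicate 2 (44.1, at 45 bp downstream). RpL34a was in the replicate 1 list (62.7) and RpS19a in both replicate lists (69.7 in replicate 1 and 42.8 in replicate 2), so the absence of these 3 copies from the pooled list is no absence of peaks. A list of 14 genes held 1 gene of each pair and the genes named as ribosomal protein-like. How much each gene is used was not measured. Of the 14, 3 (21.4%) had a pooled summit, RpL7-like, RpS19b and RpS28a, which is near the 25.2% of all protein-coding genes. Over the other 79 members the count was 43 (54.4%). At each of those 3 genes the start of another gene was nearer to the summit. When each summit counted only for the coding gene whose TSS was closest, 0 of the 14 had one, against 35 of the 79 (44.3%) and 19.8% of all genes.

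By chromosome, the members had a pooled summit in 10 of 15 on the X (66.7%), 9 of 19 on 2L (47.4%), 8 of 21 on 2R (38.1%), 7 of 14 on 3L and 12 of 23 on 3R (52.2%). All genes had shares between 23.7% (2L) and 27.6% (X) on the same chromosomes. In the pooled and the conservative list the members' share was above that of all genes on each of the 5. In the single replicates it was not on all of them, with 4 of 21 on 2R in replicate 1 (19.0%), against 19.6%, and 3 of 19 on 2L in replicate 2 (15.8%), against 16.9%. Replicate 1 had 5 members on 2L (26.3%), against 19.5%, and replicate 2 had 6 on 2R (28.6%), against 17.4%. The X members numbered 6 of 15 in replicate 1 (40.0%), against 21.3%, and 11 of 15 in replicate 2 (73.3%), against 19.1%. The single member on chromosome 4, RpS3A, had none, and 1.25% of all genes on that chromosome had one.

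Many of the 47 members without a pooled summit had a ranked peak, and 9 had none. In the pooled ranked list, which holds 96649 peaks of any score on the 6 chromosomes, 84 members (90.3%) had a summit within 1000 bp, against 76.5% of all genes. The ranked lists of replicate 1 and replicate 2 gave 83 (89.2%), against 75.2%, and 81 (87.1%), against 76.1%. These backgrounds are high, so a ranked summit alone says little. Among the 47 members, the best ranked score was from 500 to 829 in 16 (34.0%), against 12.6% of the 10429 protein-coding genes without a pooled summit. It was below 500 in 21 (44.7%), against 55.2%, and 9 (19.1%) had no ranked summit, against 31.5%. The median best score of those with a ranked summit was 404.5 in members and 223 in all such genes.

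**Figure D4:**
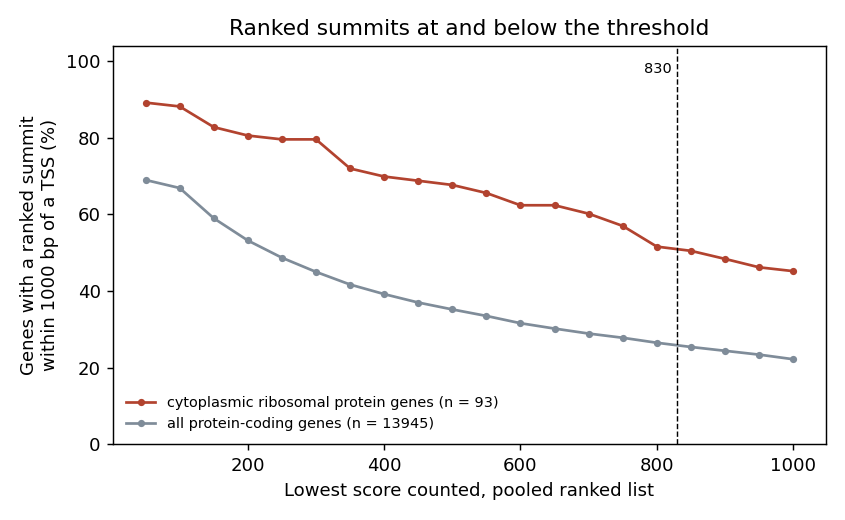
Share of genes (%) with a summit of at least a given score in the pooled ranked list, for the 93 ribosomal protein genes (red) and all 13945 protein-coding genes (grey), with the threshold of 830 as a dashed line. At a score of 500 the shares are 67.7% and 35.2%, and at 1000 they are 45.2% and 22.2%.

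The members nearest to a call were RpL13A, RpL35A, RpS9 and RpS14b. RpL13A had a ranked peak with the full score of 1000 in the pooled ranked list (signal 108, at 32 bp upstream) and in replicate 2 (60.3, at 35 bp upstream), and was in none of the thresholded lists. Its best score in replicate 1, 971, was at another position, 134 bp downstream, with a signal of 2.42. Of the 8626 pooled ranked peaks with a score of at least 830, 183 (2.12%) were absent from the thresholded list in this way, for a reason that these sources leave unstated. RpL35A had a best score of 818 at 403 bp upstream, RpS9 796 at 50 bp upstream and RpS14b 793 at 79 bp upstream. At the edge of the 1000 bp window, RpS19b (902 bp) and RpL8 (935 bp) were just inside, and RpL27A (1416 bp) and RpLP0-like (1489 bp) just outside in the pooled list. These positions hold for the pooled list. RpL8 had summits nearer its start in the other lists, as given above, and RpL27A had one 2 bp downstream of a start in the conservative list (102) that scored 767 in the pooled ranked list. RpLP0-like had no thresholded summit in the window in any list.

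The 9 members without a peak of any score in the ranked lists of the pooled data and of both replicates were RpL10, RpL10Aa, RpL15, RpL21, RpL22-like, RpL38, RpL5, RpL9 and RpS3A. For 6 of them the surroundings held few peaks of any kind. Within 100 kb of the gene the pooled ranked list held 0 summits at RpL15, 2 at RpS3A, 4 at RpL10, 7 at RpL38, 10 at RpL21 and 11 at RpL5, against a median of 202 over the 93 members and 190 over all genes. These 6 were the only members with 20 or fewer, and 430 protein-coding genes (3.08%) had so few. RpL10Aa had 64, RpL9 142 and RpL22-like 215. Whether reads could be placed in these stretches was not tested.

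The promoters of the members differed in sequence from those of all protein-coding genes whether or not they had a summit, and some of these traits were shared by the mitochondrial genes. In the 300 bases around each start, from 250 before to 50 after, CTTT with its C within 5 bp of a start was present in 58 of the 93 members (62.4%), against 8.07% of all genes and 4 of the 73 mitochondrial genes (5.48%). A gene counts when any of its starts has the word, and members have 1.70 starts per gene, against 1.41 in all genes. Per start the core was at 40.5% of the 158 starts of members, against 6.0% of the 19607 starts of all genes. By gene it was in 67.4% of the members with a pooled summit and 57.4% of those without, and in 11.0% and 7.08% of all genes. With the C exactly at an annotated start it was in 3 members (3.23%), against 0.810% of all genes. The DRE word TATCGATA was in 28 members (30.1%), against 10.2%, with 34.8% of members with a summit and 25.5% of those without, and 12.7% and 9.30% of all genes. Per start it was at 27.2%, against 7.98%. CACGTG was in 15 (16.1%), against 5.30%, and GGTCACAC in 16 (17.2%), against 8.71%. In the 73 mitochondrial genes the shares were 21.9% for TATCGATA, 6.85% for CACGTG and 11.0% for GGTCACAC.

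The other words, also searched on both strands, had shares nearer to those of all genes or below them, and no word holds another. TAATTA was in 28 members (30.1%), against 24.3% of all genes, and in 26.1% of members with a summit and 34.0% of those without, where all genes had 27.5% and 23.2%. Per start the split was 17.1% and 27.6% in members and 17.1% and 19.8% in all genes, so its direction in all genes depends on how starts are counted. TATAAA, the TATA box, was in 48 (51.6%), against 51.2%. GAGAGAG, bound by the GAGA factor, was in 1 member (1.08%), against 9.08%, and in 0 of the 46 with a summit, against 17.5% of all genes with one. It was as rare in the mitochondrial genes, at 1 of 73 (1.37%). The mean content of G and C was 38.1% in member promoters, 36% in those of the mitochondrial genes and 40.1% in all. Within the members it was 40.3% in the promoters of genes with a summit and 35.7% in those without, and over all protein-coding genes 41.5% and 39.4%.

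**Figure D5:**
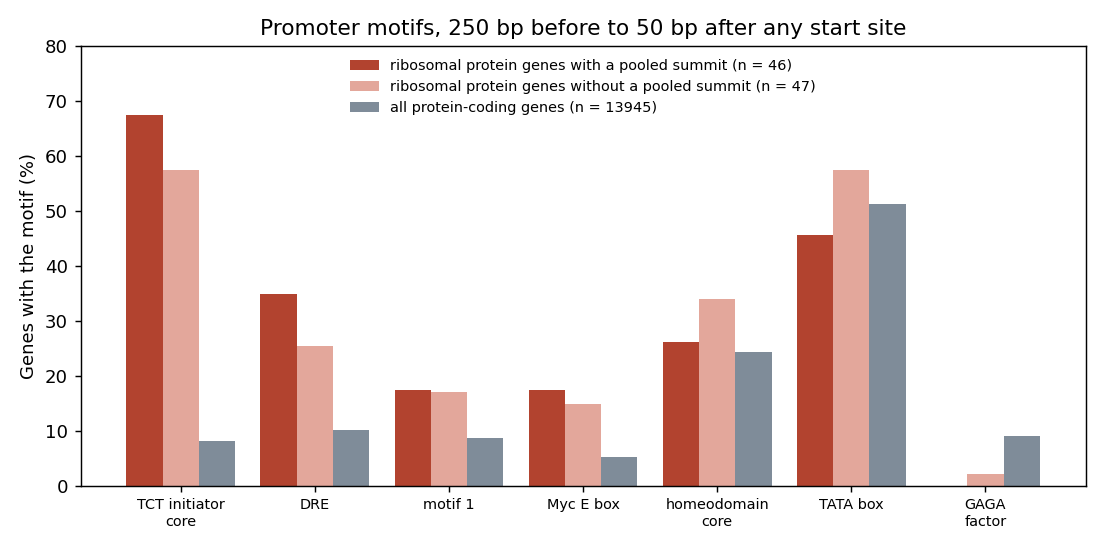
Share of genes (%) with each word from 250 bp before to 50 bp after a start site, for ribosomal protein genes with a pooled summit (n = 46), those without (n = 47) and all protein-coding genes (n = 13945). From left to right the words are those of the TCT initiator, the DRE, motif 1, the Myc E box, the homeodomain core, the TATA box and the GAGA factor. The first stands at 67.4%, 57.4% and 8.07%.

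Around the summits themselves, in windows of 101 bp, the homeodomain word was rare at members. TAATTA was in 1 of the 46 windows (2.17%), that of RpS13 shown above, against 8.67% of the 3516 windows of all genes. TATCGATA was in 4 (8.70%), at RpL27, RpS10b, RpS25 and RpL41, against 1.14%. CACGTG was in 2 (4.35%), at RpL7 and RpL24, against 0.796%, and GGTCACAC in 2 (4.35%), at RpL30 and RpL8, against 0.910%. TATAAA was in 3 (6.52%), against 19.2%, and GAGAGAG in 1 (2.17%), at RpL7-like, against 3.07%. A word is a match of letters, and its absence from a window says nothing of the factor.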

How the data were processed

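ChIP-seq peaks of 2 biological replicates of 1 group were read from 4 thresholded and 3 ranked lists on dm6. Which aligner and caller made them is not stated in these sources. The ranked counterpart of the conservative list entered only the check of the score and the scores quoted from it. The deposited score is the authors' value from 0 to 1000, in the ranked lists within 1 of 125 times the −log2 of the irreproducible discovery rate, limited to 1000. The deposited signal of a peak, set by the authors on an unstated scale, ranked peaks within a list. The deposited −log10 values (q and discovery rate) described the lists only. Peaks were called by the authors for each replicate and from both replicates together, so a pooled peak is no replicated value.

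Summits came from the deposited offset. Gene models are those of Ensembl 115, which uses dm6 coordinates, and sequence is from the RefSeq Release 6 assembly. All counts were made with Python 3.11.15, pandas 2.3.3 and numpy 2.4.6. The step that assigns summits to start sites within 1000 bp was checked on simulated data with planted summits, a single start and a single summit per gene. The choice among several starts or summits, and the other counting rules, were not checked in this way. No test was run, since genes are not replicates and there is 1 group.

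The members and gene lists were chosen with earlier results of these data known. Named genes are the 20 of highest pooled signal, the stalk and ubiquitin-fusion genes, sta, the duplicate pairs, those at the edge of the window, up to 4 seen in 1 replicate and the 4 uncalled ones of highest ranked score. Others are named to account for counts or for a neighbour, after their values were seen. Alternatives were the other lists, strong peaks, other windows, start sites, assignment and overlap rules, and leaving out each replicate or the listed copies and ribosomal protein-like genes.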

Additional observations from a re-analysis of the deposited data

How the results depend on the processing

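Of 34 values under alternative settings, 26 stayed near the main value and 8 moved. A count stayed near within 1.5 times the main count, and a median within the SD between the 2 replicates' own medians (37.5 bp for the distance and 1.5 for the signal percentile). That SD comes from the same replicate medians that are among the alternatives, so it is no independent measure for them. The count without the 14 listed copies and ribosomal protein-like genes could lose only the 3 of them with a pooled summit, so it could not move. The count of members with a summit was 16 in the strongest 50% of pooled peaks, against 46 in the pooled list. Leaving out 1 replicate gave from 17 to 19 genes of the large subunit and from 13 to 18 of the small subunit, with 17 without replicate 1 and 13 without replicate 2. The median distance was 87 bp in the pooled list and 52.5 bp in the conservative list, a shift inside that wide SD. It was 49.5 bp with a window of 500 bp and from 42 to 95 bp with 1 replicate left out. From the most upstream TSS alone it was 111 bp, the largest of these values and also inside that SD. The median signal percentile was 41.4 in the conservative list and from 36.2 to 38.3 with 1 replicate left out. The cause of these shifts was not tested, except that fewer peaks or a narrower window enter by construction. No paired analysis was possible because there is 1 group and no test. The lists hold no read counts, so what the depth limits is unknown.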
